A study of Rattus norvegicus with 16 samples.

Results

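The muscle nicotinic acetylcholine receptor is described here through its 5 subunit genes, Chrna1 (alpha1), Chrnb1 (beta1), Chrnd (delta), Chrne (epsilon) and Chrng (gamma), in rat eye muscle and leg muscle. Its genes were found as the probe sets that the annotation of the array gives one of these symbols: 6 probe sets of 31099, 1 for each gene and a second for Chrnb1. All 5 genes were among the 10416 named genes that passed the filter on low values. The 16 Affymetrix arrays came from 4 rats, called here by the numbers 15, 25, 27 and 29 in the titles, and each rat gave 1 array to each of 4 groups. EOM_synapse and EOM_fiber are neuromuscular junctions and non-synaptic regions cut by laser from the rectus extraocular muscles, and TA_synapse and TA_fiber are the same from the tibialis anterior, a leg muscle. The labels name no treatment, genotype, strain, age or sex, and each array pools many captured regions. Capture followed a stain for acetylcholinesterase, so a junction sample is a cut of tissue that holds muscle membrane and nuclei together with the nerve ending, the Schwann cells over it and connective tissue.

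The receptor is the channel that opens when the motor nerve releases acetylcholine and so starts the contraction of the fibre. It is a ring of alpha1, beta1 and delta subunits with either gamma, in fetal and denervated muscle, or epsilon, at the adult junction. In adult limb muscle the nuclei under the nerve ending transcribe the subunit genes, and nuclei elsewhere in the fibre are held silent by electrical activity. Extraocular muscle is known for fibres with many small endings along their length and for keeping the gamma subunit into adult life. A DNA element called the N-box, CCGGAA, binds ETS-family factors and has been tied to transcription of epsilon and delta at the junction. The E-box, CANNTG, binds myogenic factors such as myogenin.

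The promoters of all 5 genes are shown because both elements have been described in promoters of subunit genes. The sequences are from the RefSeq table of build GRCr8, from 250 bases before to 50 bases after each gene's start, read 5′ to 3′ on the strand of the gene. They are chr3:78877304-78877603 (minus strand) for Chrna1, chr10:55015058-55015357 (minus strand) for Chrnb1, chr9:95310066-95310365 (plus strand) for Chrnd, chr10:55834105-55834404 (minus strand) for Chrne and chr9:95325734-95326033 (plus strand) for Chrng. Capitals mark CCGGAA, or TTCCGG where it lies on the other strand, and CANNTG, which reads the same on both strands; no matches overlapped.
Chrne: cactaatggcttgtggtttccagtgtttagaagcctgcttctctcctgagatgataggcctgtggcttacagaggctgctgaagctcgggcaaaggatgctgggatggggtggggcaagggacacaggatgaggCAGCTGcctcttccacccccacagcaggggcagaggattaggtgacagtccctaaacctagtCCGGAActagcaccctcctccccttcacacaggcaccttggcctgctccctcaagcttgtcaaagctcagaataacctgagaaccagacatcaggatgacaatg
Chrnd: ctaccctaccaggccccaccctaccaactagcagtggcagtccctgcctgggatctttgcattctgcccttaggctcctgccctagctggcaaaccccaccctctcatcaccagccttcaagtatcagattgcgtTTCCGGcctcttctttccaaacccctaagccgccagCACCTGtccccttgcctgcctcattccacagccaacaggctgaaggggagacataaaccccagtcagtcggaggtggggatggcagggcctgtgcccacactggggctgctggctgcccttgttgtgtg
Chrna1: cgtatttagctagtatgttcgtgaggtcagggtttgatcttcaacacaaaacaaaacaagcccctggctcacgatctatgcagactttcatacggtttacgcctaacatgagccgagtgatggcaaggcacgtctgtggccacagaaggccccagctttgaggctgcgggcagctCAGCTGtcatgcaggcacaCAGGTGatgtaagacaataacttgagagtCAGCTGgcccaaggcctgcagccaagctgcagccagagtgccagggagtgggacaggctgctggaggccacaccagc
Chrnb1: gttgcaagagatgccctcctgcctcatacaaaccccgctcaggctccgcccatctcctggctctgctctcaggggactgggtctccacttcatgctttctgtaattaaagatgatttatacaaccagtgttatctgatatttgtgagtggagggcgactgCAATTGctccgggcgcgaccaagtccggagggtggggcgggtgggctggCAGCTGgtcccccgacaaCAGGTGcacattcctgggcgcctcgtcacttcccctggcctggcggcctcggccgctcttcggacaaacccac
Chrng: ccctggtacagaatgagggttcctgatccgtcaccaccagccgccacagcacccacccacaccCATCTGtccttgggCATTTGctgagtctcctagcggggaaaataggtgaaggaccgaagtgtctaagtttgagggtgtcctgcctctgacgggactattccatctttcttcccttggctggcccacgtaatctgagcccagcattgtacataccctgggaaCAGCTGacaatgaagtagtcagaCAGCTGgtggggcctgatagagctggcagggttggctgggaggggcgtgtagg

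CCGGAA was found in the windows of Chrne, 54 bases upstream of the start, and Chrnd, 115 bases upstream on the other strand. It was not found in those of Chrna1, Chrnb1 and Chrng, and 14.95% of 33469 promoter windows of this length held it on either strand. CANNTG was found 1 time each in the windows of Chrne (116 bases upstream) and Chrnd (79 bases upstream), 3 times in Chrna1, 3 times in Chrnb1 and 4 times in Chrng. At least 1 CANNTG stood in 72.1% of all windows, at least 3 in 16.57% and at least 4 in 5.79%. Chrnd and Chrng are neighbours on chromosome 9 with no annotated gene between them in that assembly. The motif matches are descriptions of these letters, and no binding was measured.

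Values are deposited intensities, a linear brightness per probe set, and the array medians lay between 33.43 and 57.04. Differences are on the scale of log2(intensity + 16) after quantile normalization, from limma with the rat as a block and Benjamini-Hochberg adjustment over all 10416 genes. A gene was called at an adjusted p under 0.05, and intervals are 95% intervals of the difference. The 5 comparisons share the same 16 arrays and are not independent of each other. The pseudocount of 16 makes a difference of a dim gene smaller than it was in the RNA. Where most arrays of a group lay below the median of all probe sets on their array, the fitted difference of 2 groups depends on the pseudocount. A bound ("at least") or a second difference is then given, with each value under the array median raised to that median. Brightness of different probe sets cannot be compared as amounts of RNA, so levels are compared across groups within a gene. The EOM marker Myh13, the extraocular myosin, lay between 8049 and 38022 in EOM arrays and between 3.7 and 52.4 in TA arrays, as the muscle labels say.

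Junctions stood above non-synaptic regions for 4 of the 5 subunit genes in each muscle, and the log2 differences ran from 0.72 for beta1 in EOM to 6.75 for alpha1 in TA. Alpha1, beta1, delta and epsilon were called higher in EOM_synapse than in EOM_fiber, against 5.62% of all genes called higher in that comparison. The same 4 genes were called higher in TA_synapse than in TA_fiber, against 6.70% of all genes. Gamma was called in neither. For these 4 genes the 4 junction arrays and the 4 fibre arrays did not overlap in either muscle, which held upward for 8.19% of all genes in EOM and 7.62% in TA. In captured tissue, fewer nuclei or cells of a kind and less RNA in each cannot be told apart.

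**Figure D1:**
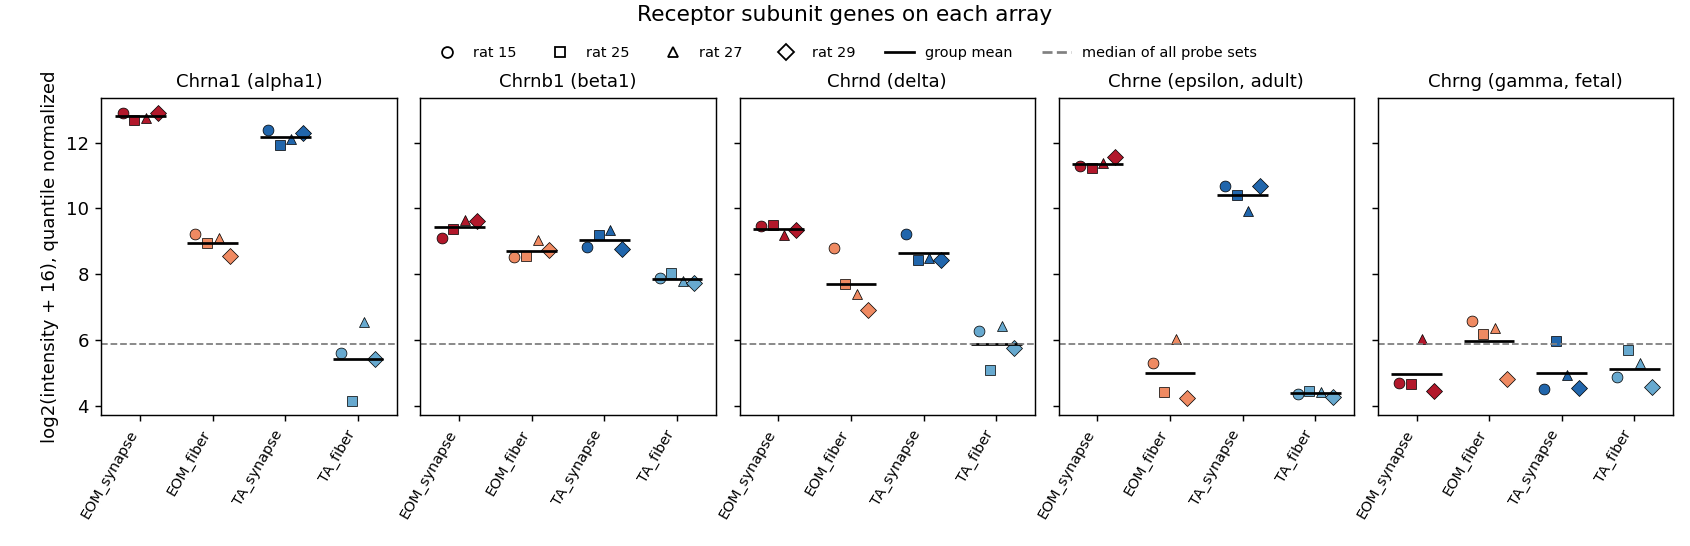
Each panel is a subunit gene, and each point is 1 array at its normalized log2(intensity + 16), with the rat as its shape, the group mean as a bar and the median of all probe sets as a broken line. Epsilon lies above 9.9 on all junction arrays and near or below the broken line on all fibre arrays, while alpha1, beta1 and delta stay above that line on all EOM_fiber arrays.

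Chrne, the subunit that marks the adult receptor, read 2198, 2115, 2397 and 2621 in EOM_synapse of rats 15, 25, 27 and 29. In EOM_fiber of the same rats it read 29.7, 4.93, 50.8 and 3.48. In TA_synapse it read 1656, 1381, 904 and 1652, and in TA_fiber 4.62, 6.99, 4.84 and 2.64. Junction arrays of both muscles were far above every fibre array, and all 4 TA_fiber arrays were below the median of their array, as were 3 of 4 EOM_fiber arrays. The log2 difference of junction over fibre was 6.36 ± 0.32 (SE, n = 4 rats) in EOM, with an adjusted p of 1.07e-07, and the bound was at least 43.5-fold. In TA it was 6.03 ± 0.32, with an adjusted p of 4.77e-08, and the bound was at least 23.3-fold.

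Between muscles, epsilon was higher in EOM_synapse than in TA_synapse in all 4 rats and the 2 groups did not overlap, which held upward for 11.0% of all genes. The difference of 0.94 ± 0.32 (interval 0.25 to 1.63) missed the threshold with an adjusted p of 0.0624, and it passed under 7 of 31 other settings, with adjusted p as low as 0.00155. Of those 7, 2 left out a single array, EOM_fiber of rat 27 (adjusted p = 0.0181) or of rat 29 (adjusted p = 0.0396). No subunit gene was called between the junctions of the 2 muscles, against 7.82% of all genes called higher and 16.4% in either direction. At an unadjusted p under 0.05, which many genes passed, there were 2, Chrne (rank 1914 of 10416 by p) and Chrnd (rank 2507). In fibre the epsilon difference of EOM over TA was 0.61 ± 0.32 (adjusted p = 0.228), higher in 2 of 4 rats. With values under the array median raised to it, this fibre difference was 0.04. The difference between the muscles in the junction effect was 0.33 ± 0.45 (interval -0.65 to 1.31), and -0.23 with a pseudocount of 1. With values under the array median raised to it, the junction effect was 5.44 in EOM and 4.54 in TA.

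Chrng, the fetal subunit that takes the place of epsilon before adult junctions form, was dim on most arrays. It read 93.3, 55.6, 66.9 and 13.3 in EOM_fiber of rats 15, 25, 27 and 29, against 12.4, 44.2, 20.6 and 5.73 in TA_fiber. In EOM_synapse it read 12.2, 10.9, 43.5 and 6.32, and in TA_synapse 5.90, 40.9, 15.1 and 7.06. It was above the array median on 3 of 4 EOM_fiber arrays, 1 EOM_synapse array, 1 TA_synapse array and no TA_fiber array. Those 5 arrays of 16 let it pass the filter, and the 4 groups overlapped.

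EOM_fiber exceeded TA_fiber for gamma in all 4 rats, by 0.87 ± 0.34 (interval 0.13 to 1.61), which did not pass the test (adjusted p = 0.107). With values under the array median raised to it, the difference was 0.37, or 1.29-fold. EOM_synapse was lower than EOM_fiber in all 4 rats, by a log2 difference of -1.01 ± 0.34 (interval -1.75 to -0.27), with an adjusted p of 0.0818. With values under the array median raised to it, this difference was -0.33. Without the EOM_synapse array of rat 27, the 1 array of that group above its median, it was -1.31 with an adjusted p of 0.0386. In TA the difference of junction over fibre was -0.13 ± 0.34 (adjusted p = 0.881), and it turned to 0.04 without TA_synapse of rat 15 and to 0.07 without that of rat 27. Between junctions the difference of EOM over TA was -0.02 ± 0.34 (interval -0.76 to 0.72), and its sign changed with the scaling: 0.04 for values as deposited and 0.05 with arrays centred on a common median. With values under the array median raised to it, TA_synapse over TA_fiber was 0.03 and EOM_synapse over TA_synapse 0.01.

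Epsilon was set against gamma on each array as the difference of the 2 normalized log2 values. Since the probe sets differ in how they bind, its zero has no meaning and only its shift between groups is read. Gamma lay below the array median on most arrays of EOM_synapse, TA_synapse and TA_fiber, and the junction shift of epsilon alone was 6.36 in EOM and 6.03 in TA, so the shift of the difference is mostly that of epsilon and is no measure of gamma. It was 6.58, 6.54, 5.34 and 7.08 in EOM_synapse of rats 15, 25, 27 and 29, against -1.27, -1.78, -0.33 and -0.56 in EOM_fiber. It was 6.17, 4.43, 4.99 and 6.13 in TA_synapse, against -0.50, -1.26, -0.86 and -0.30 in TA_fiber. The means were 6.39 ± 0.74 in EOM_synapse and -0.99 ± 0.66 in EOM_fiber, and 5.43 ± 0.86 in TA_synapse and -0.73 ± 0.43 in TA_fiber (SD, n = 4 each). Junction and fibre arrays lay apart in both muscles, while the EOM and TA arrays overlapped, at junctions and in fibre. A pseudocount of 1 in place of 16 gave means of 7.51 and -1.77 in EOM_synapse and EOM_fiber, and 6.52 and -1.66 in TA_synapse and TA_fiber.

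**Figure D2:**
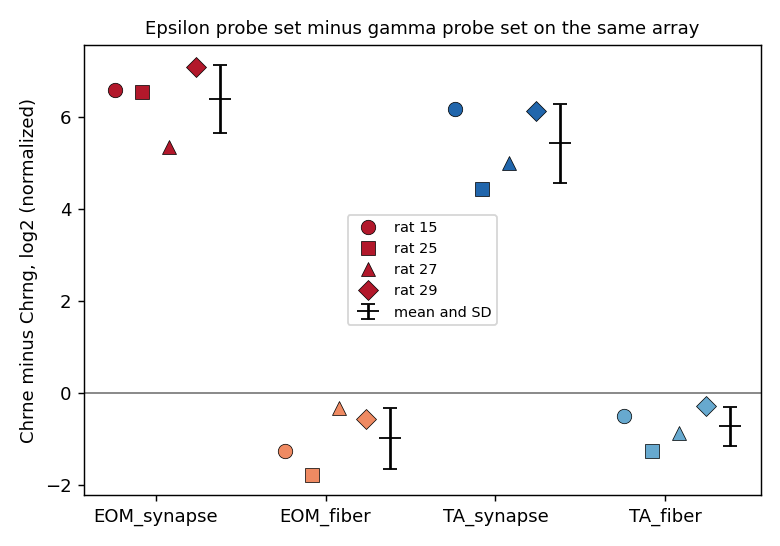
The vertical axis is the normalized log2 value of Chrne minus that of Chrng on the same array, with 1 point for each rat and the mean and SD beside each group. The 8 junction arrays lie between 4.43 and 7.08 and the 8 fibre arrays between -1.78 and -0.30.

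Chrna1 codes for alpha1, the subunit that carries most of the acetylcholine binding site and the one bound by alpha-bungarotoxin. Its probe set read 6285, 5572, 5303 and 6067 in EOM_synapse of rats 15, 25, 27 and 29, against 544, 482, 529.6 and 358 in EOM_fiber. In TA it read 4969.98, 3936, 4333 and 4724 in TA_synapse, against 31.4, 2.79, 66.3 and 20.7 in TA_fiber. Every EOM_fiber array was above every TA_fiber array, and 1 of 4 TA_fiber arrays was above its array median. The difference of EOM_fiber over TA_fiber was 3.52 ± 0.32, with an adjusted p of 1.55e-05 and higher in 4 of 4 rats, and the bound was at least 7.53-fold. Alpha1, beta1 and delta were the subunit genes called higher in EOM_fiber, against 8.40% of all genes, and their groups did not overlap, which held upward for 8.39% of all genes.

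At junctions the alpha1 difference of EOM over TA was 0.63 ± 0.32 (interval -0.05 to 1.31), higher in 4 of 4 rats without overlap of the groups, and did not pass the test (adjusted p = 0.203). Junction over fibre was 3.85 ± 0.32 in EOM (adjusted p = 4.95e-06) and 6.75 ± 0.32 in TA (adjusted p = 2.19e-08), where the bound was at least 70.3-fold. The junction effect was smaller in EOM than in TA by a log2 difference of -2.89 ± 0.45, in 4 of 4 rats, with an adjusted p of 0.00698. With the TA_fiber values under the array median raised to it, the difference was -2.28, also in 4 of 4 rats. Alpha1 was the 1 subunit gene called for this difference of differences, against 0.662% of all genes called in that direction. The call was lost without rat 15 (adjusted p = 0.0867), without rat 29 (adjusted p = 0.0564) and with a pseudocount of 1 (-3.86, adjusted p = 0.116), where the low TA_fiber values weigh more.

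Chrnb1 codes for beta1, a structural subunit through which the receptor is held by the scaffold protein rapsyn. It read 547, 628, 808 and 759 in EOM_synapse of rats 15, 25, 27 and 29, against 344, 374, 512 and 399.99 in EOM_fiber. In TA_synapse it read 454, 594, 618 and 419, against 212, 224, 186 and 184 in TA_fiber. It was above the array median on all 16 arrays and its fibre level was the nearest to its junction level of the 4 genes that were called. Junction over fibre was 1.18 ± 0.19 in TA (adjusted p = 0.00101) and 0.72 ± 0.19 in EOM (adjusted p = 0.0248). EOM_fiber over TA_fiber was 0.85 ± 0.19 (adjusted p = 0.00755) and EOM_synapse over TA_synapse 0.39 ± 0.19 (adjusted p = 0.174). The difference of the junction effects, -0.45 ± 0.26, was not called (adjusted p = 0.586).

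The EOM junction call of beta1 was lost in 9 of 20 leave-out fits, with adjusted p between 0.0514 and 0.114: those without EOM_fiber of rat 15 or 25, without EOM_synapse of rat 25, 27 or 29, and without each of rats 15, 25, 27 and 29 as a whole. The log2 difference stayed between 0.62 and 0.80 in the 20 fits, and in the fit of all probe sets without a filter the adjusted p was 0.0790. The EOM over TA call in fibre was lost without rat 27 (adjusted p = 0.0713). The second Chrnb1 probe set lay below the array median on all 16 arrays, between 0.9 and 27.73, and no comparison of it was called in that fit.

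Chrnd codes for delta, which forms a binding site with alpha1 at one of the subunit borders of the ring. It read 689, 695, 603 and 627 in EOM_synapse of rats 15, 25, 27 and 29, against 409.5, 202, 155 and 105 in EOM_fiber. In TA_synapse it read 588, 335, 322 and 330.1, against 58.3, 18.9, 60.5 and 29.9 in TA_fiber. The EOM_synapse values lay close together, whereas EOM_fiber spanned a wider range, with rat 15 the highest, and TA_synapse of rat 15 stood apart above the other 3 arrays of its group. Junction over fibre was 1.68 ± 0.30 in EOM (adjusted p = 0.00281) and 2.75 ± 0.30 in TA (adjusted p = 3.58e-05). EOM_fiber over TA_fiber was 1.81 ± 0.30 (adjusted p = 0.00107), higher in 4 of 4 rats. EOM_synapse over TA_synapse was 0.74 ± 0.30 (interval 0.11 to 1.38), higher in 4 of 4 rats but not called (adjusted p = 0.106). The difference of the junction effects was -1.07 ± 0.42 (adjusted p = 0.339), lower in 4 of 4 rats.

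**Figure D3:**
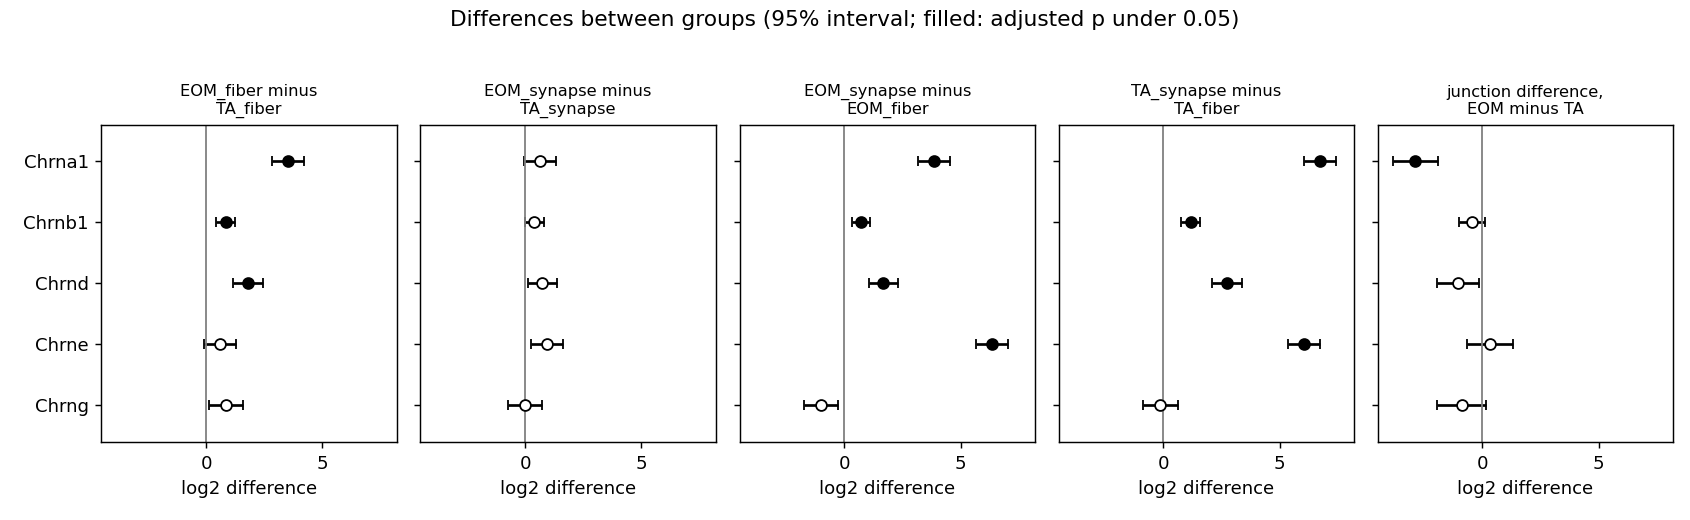
Each panel is a comparison, and points are log2 differences of the normalized values with 95% intervals, filled where the adjusted p was under 0.05. In EOM_fiber over TA_fiber alpha1 stands at 3.52 and epsilon at 0.61, and in the last panel alpha1 is the filled point at -2.89.

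As a share of the junction intensity of the same rat, the fibre intensity set the genes apart. For alpha1 it was 8.65% at the median of the 4 rats in EOM (5.91 to 9.99%), against 0.535% in TA (0.071 to 1.53%). For delta it was 27.4% in EOM (16.7 to 59.5%), against 9.49% in TA (5.64 to 18.8%), and for beta1 61.2% in EOM (52.7 to 63.4%), against 40.8% in TA (30.1 to 46.6%). For epsilon it was 0.793% in EOM (0.133 to 2.12%), against 0.393% in TA (0.160 to 0.536%), so epsilon stayed under 3% of its junction intensity in both muscles. EOM and TA did not overlap for alpha1 and beta1 and did for delta and epsilon. A share of a dim value includes the array background, so the shares of epsilon, and of alpha1 in TA, are imprecise. No share is given for gamma, whose junction values were near background.

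**Figure D4:**
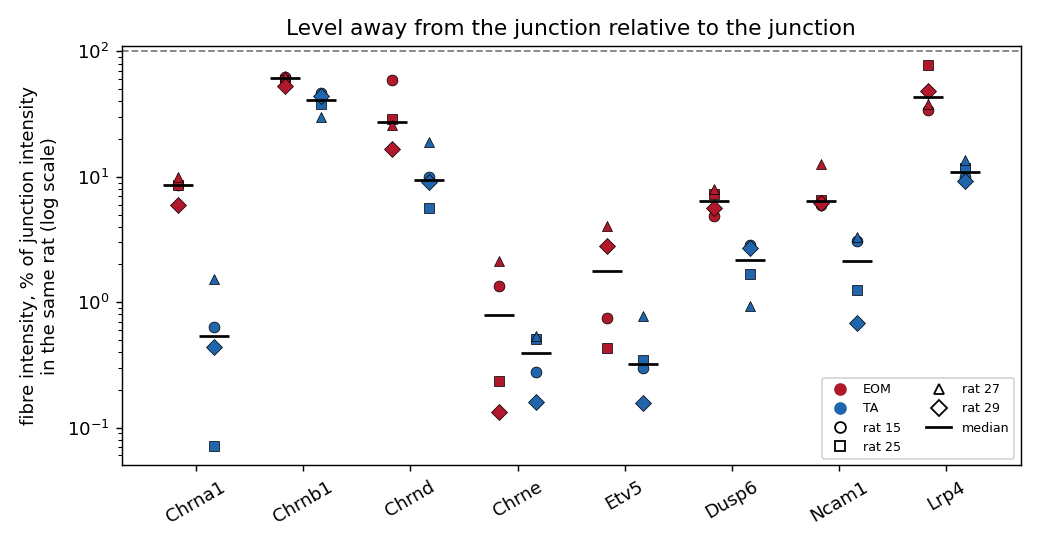
The vertical axis, a log scale, is the fibre intensity as a percent of the junction intensity in the same rat, with EOM left of TA for each gene other than gamma, 1 point for each of 4 rats and a bar at the median. The alpha1 points lie between 5.91 and 9.99% in EOM and under 1.53% in TA, and 4 other junction genes are drawn for scale.

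The order of the group levels also differed between the genes. Alpha1 stood highest in EOM_synapse, then TA_synapse, EOM_fiber and TA_fiber, with no overlap between neighbours in that order. Epsilon kept the same order, but its EOM_fiber and TA_fiber arrays overlapped. Beta1 and delta kept it too, with EOM_synapse and TA_synapse overlapping for beta1 and, after normalization, only just for delta. EOM_fiber also overlapped TA_synapse in both of these genes. Gamma stood highest in EOM_fiber, and all neighbours in its order overlapped.

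Across the 16 arrays, the gene whose normalized values were most like those of epsilon was Spry1, a feedback inhibitor of growth factor signalling, with a Pearson r of 0.990, followed by Map2k1 (0.984) and the ETS factor gene Etv5 (0.983). For alpha1 they were Gas7 (0.978), Tec (0.975) and the ETS factor gene Etv1 (0.972), and for beta1 App (0.960), Sec62 (0.952) and Etv1 (0.939). For delta they were Chrna1 (0.956), Gas7 (0.946) and Eef1a1 (0.943). For gamma the highest were Aak1 (0.763), Adgrb2 (0.760) and Ccrl2 (0.756). Among the subunits, alpha1 and delta had an r of 0.956, alpha1 and epsilon 0.918, and epsilon and gamma -0.325. These r values are descriptions over arrays that share 4 rats and 4 groups. How much of each comes from differences between the groups was not tested.

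Genes of the junctional transcription pathway, in which nerve-derived neuregulin acts through ErbB receptors and ERK on ETS factors, were taken as a list of 14, of which 11 were tested. In EOM 8 of the 11 were called higher at junctions, against 5.62% of all genes, and the other 3 were not called. The median log2 difference was 1.92, or 1.69 with values under the array median raised to it, against -0.04 for all genes. In TA 8 were called higher, against 6.70% of all genes, and 3 were not called, with a median of 1.93 against -0.01. Etv5, an ETS factor of junctional nuclei, stood at 5.42 ± 0.36 in EOM (adjusted p = 9.66e-07) and 6.26 ± 0.36 in TA (adjusted p = 9.02e-08). Its fibre values lay below the array median on 3 of 4 EOM_fiber and all 4 TA_fiber arrays, and the bounds were at least 26.8-fold in EOM and at least 30.5-fold in TA. Dusp6, a phosphatase that ERK signalling induces, stood at 4.12 ± 0.26 in EOM (adjusted p = 5.27e-07) and 5.50 ± 0.26 in TA (adjusted p = 2.19e-08). Etv1 was called in all 4 comparisons of a pair of groups: 3.27 ± 0.22 at EOM junctions, 4.53 ± 0.22 at TA junctions, 2.86 ± 0.22 for EOM_fiber over TA_fiber and 1.61 ± 0.22 for EOM_synapse over TA_synapse. Gabpa, whose protein binds the N-box, stood at 0.68 ± 0.33 at EOM junctions and was not called (adjusted p = 0.214). Nrg1, Erbb3 and Erbb4 lay below the filter.

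Of 17 genes for clustering of receptors, 11 were tested. At EOM junctions 6 were called higher, against 5.62% of all genes, and 5 were not called. That count was lower in 29 of 30 other settings, 19 of 20 leave-out fits among them. It was 3 without rat 15 and 2 without rat 29. The median was 0.65, or 0.37 with values under the array median raised to it, against -0.04 for all genes. At TA junctions 4 were called higher, against 6.70% of all genes, and 7 were not called. The median there was 0.30, or 0.16 with such values raised, against -0.01 for all genes. Dtna, a scaffold of the dystrophin complex, stood at 1.25 ± 0.20 in EOM (adjusted p = 0.00136) and 0.98 ± 0.20 in TA (adjusted p = 0.0062). Agrn, for the nerve and muscle protein agrin, stood at 1.53 ± 0.30 in EOM (adjusted p = 0.00566), and Colq, which anchors acetylcholinesterase, at 2.95 ± 0.42 in TA (adjusted p = 4.29e-04). In the other muscle, Agrn read 186.4 to 414 in TA_synapse, against 56.7 to 186.7 in TA_fiber. Colq read 818 to 1020 in EOM_synapse, against 128 to 289 in EOM_fiber. Lrp4, the agrin receptor, stood at 2.77 ± 0.22 at TA junctions (adjusted p = 2.34e-06) and was higher in EOM_fiber than in TA_fiber by 1.57 ± 0.22 (adjusted p = 3.85e-04). Lrp4 read 443 to 613 in EOM_synapse, against 181 to 478 in EOM_fiber. Its fibre share was 43.2% in EOM (33.9 to 77.9%), against 10.8% in TA (9.22 to 13.65%).

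Rapsn, for rapsyn, which binds the receptor itself, was not called at -0.36 ± 0.25 in EOM and -0.26 ± 0.25 in TA (adjusted p = 0.402 and 0.588). Dok7, an activator of MuSK, was not called at -0.63 ± 0.20 in EOM (adjusted p = 0.0673) and -0.45 ± 0.20 in TA (adjusted p = 0.208), and without EOM_synapse of rat 25 its EOM difference was -0.79 with an adjusted p of 0.0429. Musk and Dmd lay below the filter, and Ache, Sntb1 and Sntb2 had no probe set named here.

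Among 10 genes of receptor assembly and turnover, all tested, 3 were called higher at EOM junctions, against 5.62% of all genes, and 2 at TA junctions, against 6.70%. Their medians were 0.38 in EOM and 0.41 in TA. Hspa5, an endoplasmic reticulum chaperone, stood at 1.34 ± 0.23 in EOM (adjusted p = 0.00214) and 1.58 ± 0.23 in TA (adjusted p = 4.49e-04). Pdia3, which helps form disulphide bonds, stood at 1.29 ± 0.26 in EOM (adjusted p = 0.00715). The TA count was 1 without any of 7 arrays, TA_fiber of rats 15, 27 and 29 and TA_synapse of all 4 rats, and 1 without rat 15, 27 or 29 as a whole.

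Of 10 genes known to respond to denervation or to code for fetal isoforms, 8 were tested. In EOM_fiber 4 were called higher than in TA_fiber, against 8.40% of all genes, and the other 4 were not called. The median was 0.60, or 0.36 with values under the array median raised to it, against 0.03 for all genes. Myh8, the neonatal myosin, stood at 8.29 ± 0.32 (adjusted p = 3.48e-09) and Myh3, the embryonic myosin, at 6.40 ± 0.77 (adjusted p = 1.08e-04). Both lay below the array median on 3 of 4 TA_fiber arrays, and the bounds were at least 184-fold for Myh8 and at least 48.8-fold for Myh3. Ncam1, an adhesion molecule of junctions and denervated fibres, stood at 3.60 ± 0.26 at EOM junctions (adjusted p = 1.76e-06) and 4.98 ± 0.26 at TA junctions (adjusted p = 4.31e-08), where the bound was at least 22.9-fold. Myh3 was lower at EOM junctions, at -4.81 ± 0.77 (adjusted p = 0.00133). Its EOM_fiber values differed widely between rats 15, 25, 27 and 29, at 19874, 2032, 8678 and 542. In EOM_synapse of the same rats it read 208, 96.2, 81.0 and 128. Scn4a, the adult muscle sodium channel gene, lay below the filter.

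Among 14 tested genes of myogenic and activity-dependent control, 0 were called at EOM junctions in limma. At TA junctions 2 were called higher, against 6.70% of all genes, a count that was 1 in 23 of 30 other settings, 16 of 20 leave-out fits among them. Myog, a factor for E-boxes that rises on denervation, stood at 0.49 ± 0.25 in EOM and 0.24 ± 0.25 in TA (adjusted p = 0.249 and 0.62). At EOM junctions 2 of the 14 had an unadjusted p under 0.05, a level that many genes passed. In that comparison the unadjusted limma p of 0.0111 for Chrng ranked 1408 of 10416. The median log2 difference of the 14 genes there was -0.23, against -0.04 for all genes. Of the 11 other nicotinic subunit genes on the array, only Chrnb2 passed the filter, and it lay below the array median on all junction arrays.

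Markers of other cells moved with the junction results. Of 8 Schwann cell markers, 6 were called higher at EOM junctions, against 5.62% of all genes, and 6 at TA junctions, against 6.70%. Their summed intensity lay between 7079 and 12157.5 in EOM_synapse, against 1720 to 2623 in EOM_fiber, and between 3338 and 5384 in TA_synapse, against 398 to 722.5 in TA_fiber. Of 6 fibroblast markers, 4 were called higher at EOM junctions and 6 at TA junctions, with sums of 11273 to 21712 in EOM_synapse, against 3149 to 15686 in EOM_fiber, and of 7466.5 to 18259.6 in TA_synapse, against 1093 to 6049 in TA_fiber. Of 5 tested endothelial markers, 3 were called lower at EOM junctions, against 4.51% of all genes called lower, and 2 at TA junctions, against 3.53%. Their sums were 1050 to 1761 in EOM_synapse, against 1904 to 2591 in EOM_fiber, and 744 to 1383 in TA_synapse, against 1191 to 1828 in TA_fiber. Of 5 tested smooth muscle and pericyte markers, 2 were called lower in each muscle, against 4.51% of all genes in EOM and 3.53% in TA. Sums of these markers were 389 to 521 in EOM_synapse, against 610 to 933 in EOM_fiber, and 318 to 614 in TA_synapse, against 464 to 846 in TA_fiber. Of 8 markers of the skeletal muscle fibre, 3 were called lower at EOM junctions, against 4.51% of all genes, and 1 at TA junctions, against 3.53%. Their sums were 74798 to 108807 in EOM_synapse, against 146038 to 218177 in EOM_fiber. In TA_synapse they were 161914 to 230399, against 198903 to 372667 in TA_fiber. Macrophage markers summed to 361 to 695 in EOM_synapse, against 582.5 to 1415 in EOM_fiber, and to 355 to 422 in TA_synapse, against 181 to 399 in TA_fiber. The part of all these markers in the subunit results was not tested.

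Several marker lists also moved with the difference between fibres. In EOM_fiber over TA_fiber 3 of 8 Schwann cell, 6 of 6 fibroblast, 3 of 5 macrophage, 2 of 5 endothelial and 1 of 2 satellite cell markers were called higher, against 8.40% of all genes. Of 8 markers of the skeletal muscle fibre, 1 was called higher and 2 lower in that comparison, against 8.40% and 7.15% of all genes. The part of all these markers in the fibre results of alpha1, beta1 and delta was not tested. Of 9 axon and motor neuron markers 2 passed the filter, and both were called higher in EOM_fiber than in TA_fiber. Both were also called higher in EOM_synapse than in TA_synapse, against 7.82% of all genes. At TA junctions 1 of them was called higher than in TA_fiber, against 6.70% of all genes, and at EOM junctions 0. Chat and Slc18a3, whose proteins define cholinergic endings, lay below the array median on every array of all 4 groups. These are RNA values, and the proteins of the endings were not measured.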

How the data were processed

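RNA from laser-captured junctions and non-synaptic regions was amplified over more than 1 cycle, labelled with biotin and hybridised to Affymetrix rat arrays, per the labels' protocols. What was deposited is the intensity of each probe set on a linear scale, brought by the authors to a common trimmed mean (150.06 to 150.08 without the outermost 2% on either side). Which program made the values from single probes was not stated in the labels. Repeated amplification can widen the spread of low values, and the number of arrays limits the precision.

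The deposited intensities were put on a log2 scale as log2(intensity + 16) and quantile normalized, with 57 control probe sets left out. Before that step the array medians differed by 0.564 log2. Symbols were taken from the array's annotation and updated through the GRCr8 gene table. A single gene was named for 20826 probe sets, several for 436 and none for 9780. A probe set was tested where it lay above the median of its array in at least 4 arrays, and each gene was represented by its brightest such probe set on average, for 10416 genes in all. Limma 3.58.1 in R 4.3.3 fitted a mean for each of the 4 groups and a fixed effect for each rat, with 9 residual degrees of freedom and a prior of 4.577. The p-values were adjusted by Benjamini-Hochberg over all genes in each of 5 comparisons, and the fifth sets the junction difference of EOM against that of TA. Bounds, with values under the array median raised to it, were added after seeing the data. The limma fit was tested on simulated log2 values with independent noise and no rat effect. The normalization, the filter and the bounds were not tested in this way. Promoters were read and searched with Python 3.11.15.

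The replicate numbers in the titles were taken as the 4 rats. With group means removed, 16 of the 24 pairs of arrays from 1 rat had a correlation over 0.1 (mean r 0.1124, lowest -0.0666, highest 0.2452). The mean for pairs from different rats was -0.0374. Removing group means ties that value to the mean of pairs from 1 rat, so it is no separate evidence of pairing. For 14 of 16 arrays the nearest array of the other groups was from the same animal. Genes are the points of these correlations and do not count as replicates.

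The member genes and the gene lists were chosen with earlier results of these data known. Named are all members and their probe sets, the 3 genes most like each member, and from each list up to 3 called genes with large differences, plus a set of receptor and junction genes whatever their values; not all are printed. Alternatives were another block, each pair of groups alone, another prior, 2 other scalings, 2 other filters, pseudocounts of 1 and 64, and fits without each array or rat.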

Additional observations from a re-analysis of the deposited data

Results flagged for a closer look

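Of 24 groups of 4 arrays examined (the 6 probe sets in each group), 2 held an array whose gap to the nearest other array, divided by the range of the group, passed the limit of 0.829. Chance alone passes it in about 1 in 20 groups. Chrnd stood at a log2 value of 9.21 in TA_synapse of rat 15, against 8.43, 8.43 and 8.49 in the other 3 arrays of the group (ratio 0.926). Without that array the log2 difference of EOM_synapse over TA_synapse for delta was 0.76 with an adjusted p of 0.166, and that of TA_synapse over TA_fiber was 2.72 with an adjusted p of 3.11e-04.

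Chrng stood at 6.04 in EOM_synapse of rat 27, against 4.47, 4.68 and 4.70 in the other 3 arrays (ratio 0.854). Without that array EOM_synapse was lower than EOM_fiber by a log2 difference of -1.31 with an adjusted p of 0.0386, and the difference of EOM_synapse over TA_synapse was -0.32 with an adjusted p of 0.607. With all arrays kept and values under the array median raised to it, EOM_synapse over EOM_fiber was -0.33.

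The junction effect of Chrna1 differed between the muscles in the test of that difference itself, by a log2 difference of -2.89 (EOM minus TA), as the fit with all 16 arrays gave it.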

How the results depend on the processing

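Calls of Chrna1, Chrnd and Chrne between junction and fibre in both muscles, and of Chrna1 and Chrnd between fibres, kept their direction and their side of the threshold in the 31 other settings run for each. The replicate block came from the shared rats; with no replicate block the Chrne difference between junctions stayed at 0.94 and no subunit call changed, and counts over all genes were 1383, 1474, 831, 903 and 73 in the 5 comparisons, against 1620, 1712, 1055, 1066 and 96. Between EOM_synapse and TA_synapse, where 0 subunit genes were called, the count was 1 with a random replicate block, a trended robust prior or a filter of 8 arrays (Chrne 0.94, adjusted p = 0.0425, 0.0219 and 0.0488), 2 with only the 8 arrays of the comparison (Chrne 0.94, adjusted p = 0.0251; Chrnd 0.74, adjusted p = 0.0497) and 3 with a pseudocount of 64 (Chrna1 0.62, adjusted p = 0.0213; Chrnd 0.68, adjusted p = 0.0237; Chrne 0.91, adjusted p = 0.00155). In that order, these settings called 1685, 2060, 1844, 1651 and 2136 of all genes between junctions. The genes tested numbered 10416, or 9073 with the filter of 8 arrays. Leave-out fits gave subunit counts of 0 to 1 and Chrne values of 0.65 to 1.10. With only the 8 arrays, Chrnb1 lost its calls between fibres (0.85, adjusted p = 0.0939) and at EOM junctions (0.72, adjusted p = 0.0738), and without each array or rat these ranged over 0.71 to 0.95 and 0.62 to 0.80. With a pseudocount of 1 the difference of junction effects was -3.86 for Chrna1 (adjusted p = 0.116, count of called genes 0) and turned to -0.2322 for Chrne; leave-out fits gave -3.27 to -2.53 for Chrna1 and counts of 0 to 1. Chrng between junctions turned to 0.0428 as deposited and 0.0515 with centred arrays, over a leave-out range of -0.32 to 0.28; at EOM junctions its leave-out range was -1.31 to -0.70 and at TA junctions -0.40 to 0.0741. Chrng had no value under the filter of 8 arrays and in 2 leave-out fits, where it fell below the filter. Epsilon minus gamma was 7.51 and -1.77 in EOM_synapse and EOM_fiber and 6.52 and -1.66 in TA_synapse and TA_fiber with a pseudocount of 1, and 5.04, 4.12 and -0.28 in EOM_synapse, TA_synapse and TA_fiber with 64. Rapsn at TA junctions turned to 0.0515 without rat 25 (range -0.47 to 0.0515), and Dok7 at EOM junctions ranged over -0.79 to -0.48. Counts over all genes moved by over 1.5 times with only the 8 arrays (582 between fibres, 606 at TA junctions), with centred arrays (1139 between junctions, 689 at EOM junctions, 56 for the difference of effects), and, for that difference, with the robust prior (205), pseudocount 1 (46) and 64 (218). Leave-out fits gave 976 to 1717 calls between fibres, 947 to 1940 between junctions, 491 to 1146 at EOM junctions, 602 to 1210 at TA junctions and 23 to 105 for the difference of effects. Centring moved the median of all genes at EOM junctions to 0.08, against -0.04, and for the difference of effects to 0.10, against -0.02. The causes were not tested. Gamma in most groups, the fibre levels of epsilon in both muscles and those of alpha1 in TA lie near or below the array median, which limits what can be read from them.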
